A study of Mus musculus with 12 samples.

Results

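The 7 genes described here encode cytochrome P450 enzymes of family 4, and they are Cyp4a10, Cyp4a12a, Cyp4a12b, Cyp4a14, Cyp4b1, Cyp4f14 and Cyp4f15. They were taken by symbol from 19934 genes measured in mouse kidney, each through probe sets whose annotation gives that symbol alone. Where a gene had several such probe sets, the one with the highest mean over the 12 arrays was to be used, but all 7 genes had exactly 1, so none was chosen by a measured value. The list itself was drawn up with earlier results of these arrays known, so its counts below describe these genes and are no independent evidence of a direction.

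Total RNA of whole kidney was measured on 12 arrays, 1 per female mouse of the C57BL/6 background, after 2 months on a high-protein diet that every mouse received. The 4 mutants were Mut-/- mice that carried the transgene TgINS-Alb-Mut, the 4 heterozygotes were Mut+/-, and the 4 wild-type mice were Mut+/+. Mut, now named Mmut, encodes the mitochondrial enzyme methylmalonyl-CoA mutase, whose loss causes methylmalonic acidemia. The labels give the construct by name alone. As background from outside these data, the line is known for expressing Mut from an albumin promoter, which is active in liver. In the genotype labels only the mutants carry it, so its effect and loss of the enzyme in kidney cannot be told apart. The submitters used females because more of them lived through the diet, so the arrays describe surviving mice. The series asked which kidney transcripts differ in the renal disease of this disorder.

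Enzymes of the CYP4 family add a hydroxyl group at or near the far end of a fatty acid, called omega-hydroxylation. In the kidney, CYP4A enzymes of the proximal tubule convert arachidonic acid to a hydroxyeicosatetraenoic acid that acts on vessel tone and on sodium transport, while CYP4F enzymes also act on leukotrienes. Transcription of several mouse Cyp4a genes is raised by the fatty acid receptor PPAR-alpha, and some family members differ between the sexes in mouse kidney.

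Values are the deposited log2 signals, and a difference of 1 is a 2-fold change in signal. Signals of different probe sets are not compared as levels. Array medians lay between 7.17 and 7.23, and correlations between arrays across probe sets ranged from 0.982 to 0.995. Mmut averaged 8.35 ± 0.12 in mutants, 9.92 ± 0.04 in heterozygotes and 10.53 ± 0.06 in wild-type mice (SD, n = 4 each). Whether its probes read the deleted part or the transgene was not determined.

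Mutant replicate 3 stood apart. The mean of 8 adrenal cortex markers was 9.55 on this array and 5.76 to 5.84 on the other mutants, against 6.10 to 6.47 in heterozygotes and 6.26 to 6.48 in wild-type mice. These markers include Akr1c18, which is also on the female-biased list and fell in mutants. Over the other 7 markers the mean was 10.09 on this array and 5.63 to 5.67 on the other mutants, against 5.64 to 5.89 in heterozygotes and 5.54 to 5.73 in wild-type mice, so those ranges overlapped. The steroid hydroxylase gene Cyp11b1, singled out after its values were seen, was at 12.65 on this array and at 5.79 to 5.96 on the other mutants. Its proximal tubule S3 markers (6 genes) were also lowest, at a mean of 9.60 against 10.12 to 10.43 on the other mutants. The Cyp4 results against wild type are therefore given with and without this array, and calls of other listed genes that ended without it are named beside their counts. In whole kidney, fewer cells of a type and less RNA per cell cannot be told apart.

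In mutants against wild-type mice, Cyp4a12b, Cyp4a12a, Cyp4a14 and Cyp4a10 were higher and Cyp4f14 was lower. Of the 7 genes, 4 rose, 1 fell and 2 did not pass the test, an adjusted p under 0.05 in limma's moderated test over all 19934 genes. Over all genes the same test called 9.66%, with 2.96% higher and 6.69% lower. The median log2 difference of the 7 genes was 0.19, beside 0.0044 over all genes. All 4 mutant arrays lay outside the range of the wild-type arrays for 5 of the 7 genes, as they did for 14.7% of all genes. Without mutant replicate 3 the counts were 3 higher and 1 lower, since Cyp4a10 was no longer called. In that fit limma called 502 of all 19934 genes higher and 1051 lower. These stand beside all counts against wild type that leave out this array below.

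In mutants against heterozygotes, 3 of the 7 genes rose and 1 fell, where limma called 2.54% of all genes, 1.07% higher and 1.46% lower. The counts were the same without mutant replicate 3, where limma called 212 of all genes higher and 227 lower. All arrays of these groups were apart for 5 of the 7 genes, as for 9.69% of all genes. The median log2 difference of the 7 genes was 0.19, beside -0.0075 over all genes. Both comparisons use the same 4 mutants, so they are not independent of each other.

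In heterozygotes against wild-type mice, 0 genes of the family list rose in limma and 1, Cyp4f14, fell, where it called 0.135% of all genes, 0.0652% higher and 0.0702% lower. At an unadjusted p under 0.05 it called 3 of the 7, Cyp4a12a, Cyp4a12b and Cyp4f14, as it did 11.3% of all genes. All arrays were apart for 4 of the 7 genes, Cyp4a12a, Cyp4a12b, Cyp4b1 and Cyp4f14, as for 8.44% of all genes. The median log2 difference of the 7 genes was 0.12, beside 0.0065 over all genes.

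**Figure D1:**
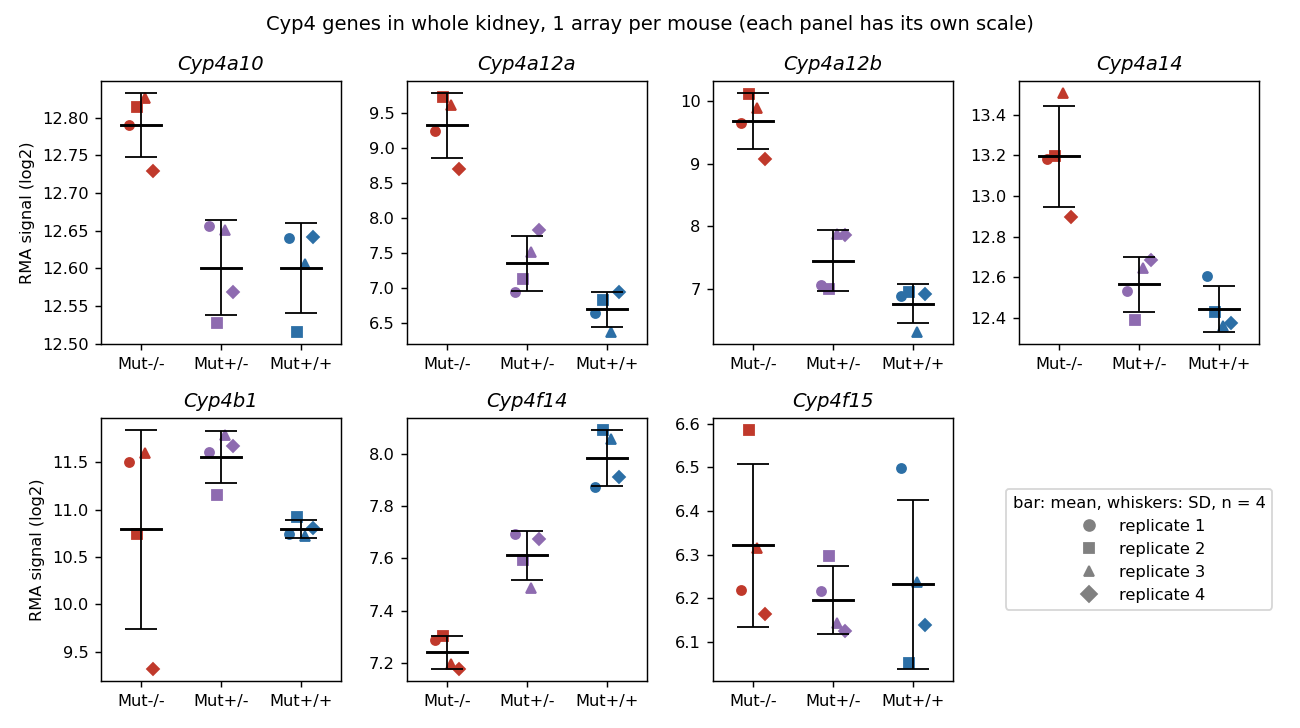
Log2 signal of the 7 Cyp4 genes in each mouse, by genotype, with mutants (Mut-/- with the transgene) at the left, heterozygotes (Mut+/-) in the middle and wild-type mice (Mut+/+) at the right. Symbols mark replicate numbers, bars the mean and whiskers the SD of 4 mice, and each panel has its own scale. For Cyp4a12a and Cyp4a12b every mutant lies above every other mouse, and mutant replicate 4, the diamond, is the lowest mutant in all 7 panels.

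Cyp4a12a encodes the enzyme held to be the main arachidonic acid omega-hydroxylase of mouse kidney, known for higher expression in males and for induction by androgens. Its signal was 9.25, 9.74, 9.62 and 8.70 in mutants, 6.95, 7.13, 7.51 and 7.83 in heterozygotes, and 6.64, 6.83, 6.37 and 6.94 in wild-type mice. Every mutant was above every heterozygote, and every heterozygote was above every wild-type mouse, by a narrow gap between the lowest heterozygote and the highest wild-type mouse. The means were 9.33 ± 0.47, 7.35 ± 0.39 and 6.70 ± 0.25 in mutants, heterozygotes and wild-type mice (SD, n = 4 each). Cyp4a12a rose 6.20-fold over wild type in mutants (log2 difference 2.63, SE 0.22, limma adjusted p = 3.18e-05). This was the change of rank 7 in absolute size among all 19934 genes. Over heterozygotes it rose 3.93-fold (log2 difference 1.97, adjusted p = 0.000944 in limma). The rise over wild type was 5.80-fold when mutant replicate 3 was left out.

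In heterozygotes the Cyp4a12a mean was 1.58-fold that of wild-type mice (log2 difference 0.66, 95% interval 0.18 to 1.14). The interval is for this gene alone, and after adjustment over all genes limma did not call the difference (adjusted p = 0.285).

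Cyp4a12b is a close relative of Cyp4a12a in the same gene cluster on chromosome 4, and probes for 1 of them may also catch transcripts of the other. Its signal was 9.65, 10.10, 9.89 and 9.07 in mutants, 7.08, 7.01, 7.89 and 7.86 in heterozygotes, and 6.89, 6.96, 6.32 and 6.94 in wild-type mice. The mutants were again above all other mice, the heterozygotes split into a lower and a higher pair, and all 4 heterozygotes were above the wild-type mice. Cyp4a12b rose 7.46-fold over wild type in mutants (log2 difference 2.90, SE 0.24, limma adjusted p = 3.16e-05), the change of rank 4 in absolute size. Over heterozygotes it rose 4.65-fold (log2 difference 2.22, limma adjusted p = 0.000873). Heterozygotes had a mean 1.61-fold that of wild-type mice, which limma did not call (log2 difference 0.68, 95% interval 0.16 to 1.21, adjusted p = 0.311). Its rise over wild type was 7.10-fold in the fit that leaves out mutant replicate 3.

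Cyp4a14 encodes a lauric acid omega-hydroxylase whose transcription PPAR-alpha ligands induce in mouse liver and kidney. Its signal was 13.18, 13.20, 13.51 and 12.90 in mutants, 12.53, 12.39, 12.65 and 12.69 in heterozygotes, and 12.61, 12.43, 12.36 and 12.38 in wild-type mice. All mutants were above all other mice, with mutant replicate 3 the highest, while heterozygotes and wild-type mice overlapped. Cyp4a14 rose 1.68-fold over wild type in mutants (log2 difference 0.75, SE 0.11, limma adjusted p = 0.00115) and 1.55-fold over heterozygotes (adjusted p = 0.00911). The rise over wild type was 1.57-fold with mutant replicate 3 left out (limma adjusted p = 0.00139). Heterozygotes did not differ from wild-type mice beyond their spread (log2 difference 0.12, 95% interval -0.11 to 0.36).

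Cyp4a10 is a further PPAR-alpha target that hydroxylates medium-chain and long-chain fatty acids. Its signal was 12.79, 12.81, 12.83 and 12.73 in mutants, 12.66, 12.53, 12.65 and 12.57 in heterozygotes, and 12.64, 12.52, 12.61 and 12.64 in wild-type mice. The mutants were above all other mice by a small margin, and the other genotypes covered the same range. Cyp4a10 rose 1.14-fold over wild type in mutants (log2 difference 0.19, SE 0.05, limma adjusted p = 0.0283). The call was lost in 5 of the 12 fits that leave out 1 array, where limma's adjusted p reached 0.0882. The fit without mutant replicate 3 was among them, with a log2 difference of 0.18 (limma adjusted p = 0.0641). Against heterozygotes the log2 difference was also 0.19 and was not called by limma (adjusted p = 0.0635). Probes for Cyp4a10 and Cyp4a14 may also catch transcripts of close Cyp4a relatives, which was not determined.

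**Figure D2:**
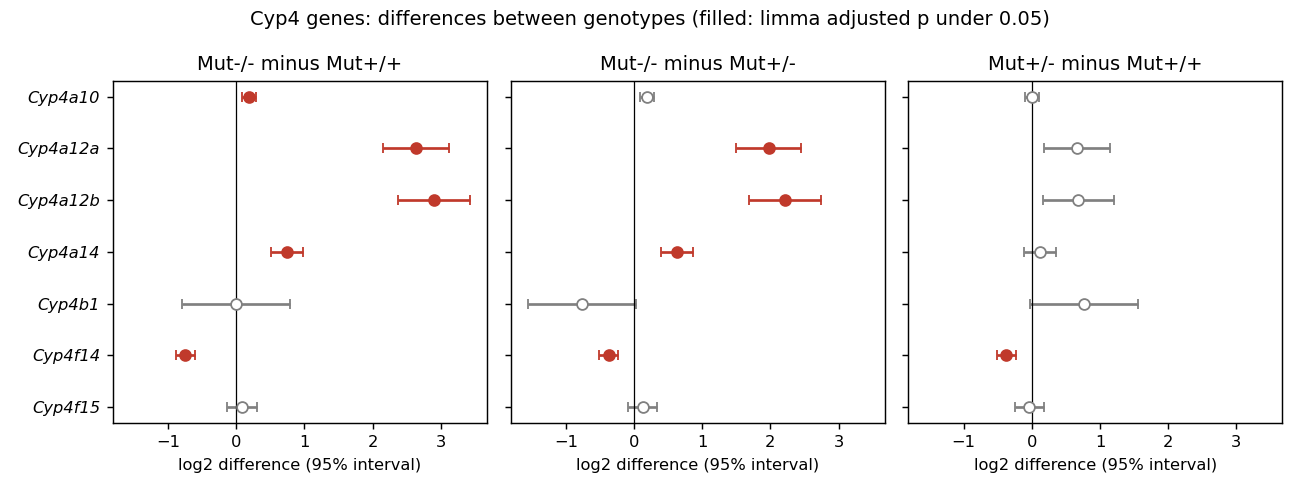
Log2 difference of each Cyp4 gene in mutants minus wild type, mutants minus heterozygotes and heterozygotes minus wild type, with limma's 95% interval for the single gene. Filled points passed an adjusted p under 0.05 over all genes. Cyp4a12a and Cyp4a12b have the largest differences of the 7 genes in the panels with mutants, at 2.63 and 2.90 against wild type, and Cyp4f14 is the filled point left of 0 in all 3 panels.

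Whether close relatives changed by the same amount was asked for 3 pairs of genes in each comparison, 9 tests in all. The difference between both genes was taken on each array, so a shift in it shows unequal change of signal and nothing about either gene alone. Signal that the probes of close relatives may share was not determined. Cyp4a14 minus Cyp4a10 changed by 0.56 on the log2 scale between mutants and wild-type mice and by 0.44 between mutants and heterozygotes (two-sided exact permutation p = 0.0286 each, adjusted p = 0.0514). Cyp4a12b minus Cyp4a12a averaged 0.35 ± 0.05 in mutants and 0.08 ± 0.13 in wild-type mice (SD, n = 4 each; exact permutation p = 0.0286, adjusted p = 0.0514). Cyp4f15 minus Cyp4f14 changed by 0.83 between mutants and wild-type mice and by 0.50 between mutants and heterozygotes, with the same exact permutation p. The value 0.0286 is the smallest that 4 against 4 arrays can give, and 5 of the 9 tests were at it. Adjusted over the 9, a p under 0.05 needs at least 6 tests at that value, so no pair could pass on its own whatever its size, and the adjusted values neither show nor deny unequal change. The remaining 4 comparisons had exact permutation p between 0.0857 and 0.83, among them all 3 between heterozygotes and wild-type mice.

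Cyp4b1 hydroxylates short fatty acids and activates foreign compounds, and in mouse kidney it is known as an androgen-responsive gene. Promoter sequences from RefSeq (GRCm38.p6) were used for 3 of the 7 genes, Cyp4b1, Cyp4f14 and Cyp4f15, and those of the others were not analysed here. The 250 bases before the start of each are shown to set the promoter of the gene that fell beside those of genes that were not called in mutants against wild-type mice. The Cyp4b1 window lies at chr4:115647722-115647971 on the minus strand, written 5′ to 3′, and the capitals mark TGTTCT, the reverse complement of the half-site AGAACA bound by androgen and glucocorticoid receptors.
Cyp4b1: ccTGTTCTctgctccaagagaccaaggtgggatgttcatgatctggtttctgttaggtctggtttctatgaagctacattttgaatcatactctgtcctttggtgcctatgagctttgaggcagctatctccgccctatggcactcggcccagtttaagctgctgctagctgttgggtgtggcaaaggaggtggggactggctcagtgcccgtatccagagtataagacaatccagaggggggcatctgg
Its first base lies at position -248 from the start. AGAACA on either strand occurs in 16.1% of the 32851 mouse promoters searched over the same length, so such a match is common.

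Cyp4b1 signal was 11.51, 10.74, 11.60 and 9.32 in mutants, 11.62, 11.15, 11.79 and 11.67 in heterozygotes, and 10.74, 10.93, 10.72 and 10.80 in wild-type mice. The mutants spread widely, with replicate 4 far below every other mouse, replicate 2 within the wild-type range and the others in the heterozygote range. All heterozygotes were above all wild-type mice. The mutant mean was 10.79 ± 1.06 and the wild-type mean 10.80 ± 0.09 (SD, n = 4 each), a log2 difference of -0.01 with a 95% interval from -0.80 to 0.79 and a limma adjusted p of 0.994. Without mutant replicate 4 the log2 difference was 0.48 (limma adjusted p = 0.127), and without mutant replicate 3 it was -0.28.

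Heterozygotes averaged 11.56 ± 0.28 (SD, n = 4) for Cyp4b1, 1.69-fold the wild-type mean (log2 difference 0.76, 95% interval -0.03 to 1.55). In the fit of all 12 arrays, which shares the wide spread of the mutants, limma did not call this (adjusted p = 0.461). With only these genotypes in the fit it was called (limma adjusted p = 0.0185).

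Cyp4f14 encodes a leukotriene B4 omega-hydroxylase and comes next to Cyp4f15 in the order of the Cyp4 genes on chromosome 17, where other genes were not considered. Of its 4 listed starts the window before the first is shown, at chr17:32917357-32917606 on the minus strand, and that of Cyp4f15 lies at chr17:32685409-32685658 on the plus strand. They are shown because these genes of the same cluster differed in call. Neither holds capitals, since none of the motifs searched was found in them.
Cyp4f14: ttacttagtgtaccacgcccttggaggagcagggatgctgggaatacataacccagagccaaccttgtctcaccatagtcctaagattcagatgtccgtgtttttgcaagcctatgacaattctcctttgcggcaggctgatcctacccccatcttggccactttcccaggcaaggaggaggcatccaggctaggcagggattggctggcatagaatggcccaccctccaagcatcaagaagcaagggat
Cyp4f15: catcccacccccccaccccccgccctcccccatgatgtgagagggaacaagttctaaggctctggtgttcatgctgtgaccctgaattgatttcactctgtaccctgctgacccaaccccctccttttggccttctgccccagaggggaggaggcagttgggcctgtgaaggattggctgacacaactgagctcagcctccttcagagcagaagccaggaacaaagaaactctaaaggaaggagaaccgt
The motifs, searched on both strands, were a direct repeat of AGGTCA spaced by 1 base, as bound by PPAR receptors, with up to 2 mismatches, an inverted repeat of AGAACA spaced by 3 bases, as bound by the androgen receptor, with up to 3 mismatches, and exact matches of each single half-site, the PPAR one before the androgen one, which overlap the repeats. The last was an exact TATA box of the letters TATAAA. The 5 motifs occur in 3.24%, 12.3%, 14%, 16.1% and 12.4% of the 32851 promoters, in that order. In the windows shown, the match in Cyp4b1 was the only one.

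Cyp4f14 signal was 7.29, 7.30, 7.19 and 7.18 in mutants, 7.69, 7.59, 7.49 and 7.67 in heterozygotes, and 7.87, 8.09, 8.06 and 7.91 in wild-type mice. No mouse of 1 genotype overlapped another genotype, and heterozygotes lay midway between the others. What set this graded order was not tested. Cyp4f14 fell in mutants to a signal 1.67-fold below wild type (log2 difference -0.74, SE 0.06, limma adjusted p = 3.33e-05) and 1.29-fold below heterozygotes (log2 difference -0.37, adjusted p = 0.00923). Without mutant replicate 3 the log2 difference from wild type was -0.73. In heterozygotes it fell to 1.29-fold below wild type (log2 difference -0.37, limma adjusted p = 0.0456). That last call was lost in 10 of the 12 fits that leave out 1 array, where the adjusted p reached 0.172, and also when every probe set was tested (0.0683).

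Cyp4f15 is a further CYP4F gene of the same cluster. Its signal was 6.22, 6.59, 6.31 and 6.16 in mutants, 6.22, 6.30, 6.14 and 6.13 in heterozygotes, and 6.50, 6.05, 6.24 and 6.14 in wild-type mice. All genotypes overlapped. The log2 difference between mutants and wild-type mice was 0.09 with a 95% interval from -0.13 to 0.31 (limma adjusted p = 0.648). In signal, a change as large as that of Cyp4f14 lies outside the interval. All Cyp4f15 signals were below the array medians of 7.17 to 7.23. Differences near background are compressed, so a larger change of the transcript is not excluded. The same limit holds for Cyp4a12a and Cyp4a12b, whose wild-type signals were all below the array medians. It also holds for Cyp4f14, whose mutant signals of 7.18 to 7.30 were close to those medians.

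Among the 4 mutants, replicate 4 was the lowest for all 7 genes, replicate 2 was the highest for 4 and replicate 3 for the other 3. Among wild-type mice, replicate 3 was the lowest for 4 genes. The same mutant was thus lowest for genes that rose, fell or were not called. For Cyp4f14 the order was close, with replicate 4 at 7.18 and replicate 3 at 7.19. The share of all genes with replicate 4 the lowest mutant was not determined, so the count is not read as a trait of these genes.

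The genes with the pattern over 12 arrays most like that of Cyp4a12a and Cyp4a12b were found among 18337 named genes by the root mean square difference between log2 values centred on each gene's mean. These were the members whose genotype means spanned at least 1. Serpina3n, a serine protease inhibitor gene, came nearest to both, at 0.48 from Cyp4a12a and 0.55 from Cyp4a12b, where a flat profile lies at 1.17 and 1.29. The members differed from each other by 0.17. Next for Cyp4a12a were the neuropeptide Y receptor gene Npy6r at 0.62 and the chemerin gene Rarres2 at 0.67. Next for Cyp4a12b were the lipocalin gene Lcn2 at 0.73 and Npy6r, also at 0.73. Serpina3n averaged 8.76 in mutants, 7.71 in heterozygotes and 6.75 in wild-type mice. Its lowest mutant was replicate 4, as for the members, while that of Npy6r and Lcn2 was replicate 1 and that of Rarres2 replicate 3. All were picked by these same values, so a shared order is no separate result.

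**Figure D3:**
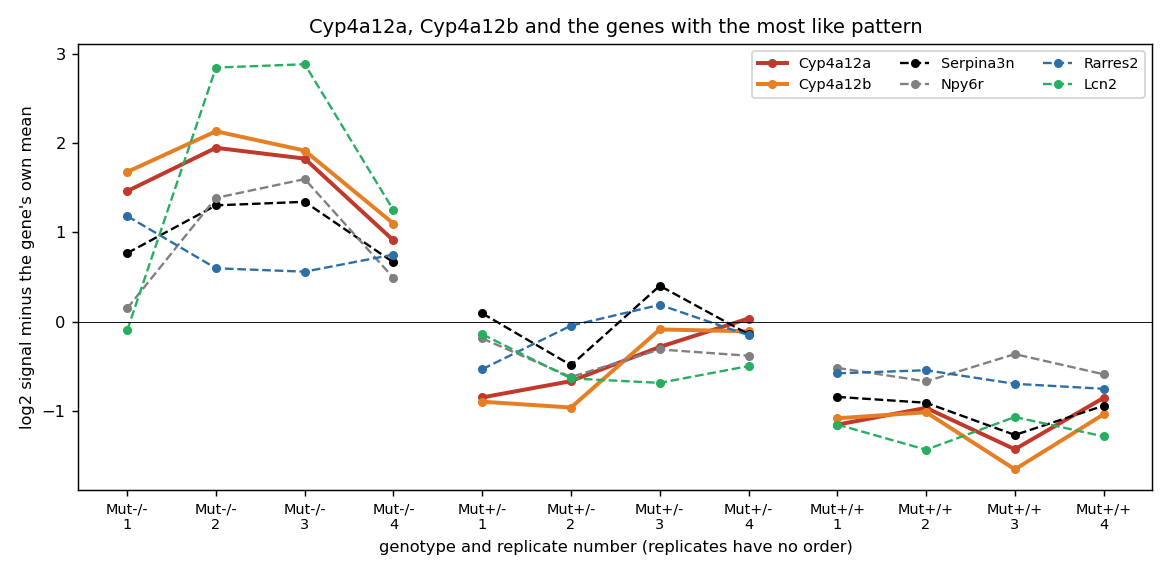
Log2 signal minus each gene's own mean on each of 12 arrays for Cyp4a12a and Cyp4a12b (solid lines) and the genes with the most like pattern (dashed lines), with mutants at the left, heterozygotes in the middle and wild-type mice at the right. Lines join arrays of 1 genotype only to guide the eye. The solid lines run nearly together, and Lcn2 leaves them on mutant replicate 1.

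Of 13 other Cyp4 genes, 8 had a probe set of their own, and 1 rose in mutants against wild-type mice, beside 2.96% of all genes. This was Cyp4f16, at 7.70, 7.86, 7.80 and 7.74 in mutants, 7.67, 7.54, 7.67 and 7.61 in heterozygotes, and 7.36, 7.57, 7.37 and 7.64 in wild-type mice. All mutants were above all wild-type mice. Its rise was 1.23-fold (log2 difference 0.29, limma adjusted p = 0.0166) and was lost without wild-type replicate 3 (adjusted p = 0.0529). Cyp4f18, singled out after its values were seen, is known for leukotriene hydroxylation in mouse neutrophils and averaged 7.32 ± 0.46 in mutants and 6.73 ± 0.08 in wild-type mice (SD, n = 4 each; limma adjusted p = 0.0533). Its mutant replicate 2 was at 7.98. In limma 0 of the 8 were called in mutants against heterozygotes or in heterozygotes against wild-type mice. At an unadjusted p under 0.05 these comparisons called 2 and 0 of the 8, beside 15.4% and 11.3% of all genes. The median log2 difference of the 8 between mutants and wild-type mice was 0.06. Cyp4f37, Cyp4f40, Cyp4x1 and Cyp4f39 averaged only 4.93, 5.16, 5.62 and 5.83 in mutants, below the array medians, so their lack of a call says little. Cyp4a31, of the chromosome 4 cluster, averaged 12.82 in mutants and 12.74 in wild-type mice and was not called. Without mutant replicate 3 the comparison with wild type called 2 of the 8 higher, Cyp4f16 and Cyp4f18 (limma adjusted p = 0.0354 and 0.0378).

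The P450 enzymes need electrons, and of 8 genes of P450 reductase, cytochrome b5 and related carriers 0 rose and 2 fell in mutants against wild-type mice. Over all genes limma called 2.96% higher and 6.69% lower. Cyb5a, which encodes cytochrome b5, fell to 12.60 ± 0.08 in mutants, against 12.80 ± 0.05 in wild-type mice (SD, n = 4 each; limma adjusted p = 0.0233). Cyb5r4, a cytochrome b5 reductase gene, fell to 9.57 ± 0.15 in mutants, against 9.83 ± 0.06 in wild-type mice (SD, n = 4 each; limma adjusted p = 0.0282). Each call ended without some single arrays, that of Cyb5a without any 1 of 3 and that of Cyb5r4 without any 1 of 5. Cyb5a alone of the 8 was called with mutant replicate 3 left out. In mutants against heterozygotes limma called 0 of the 8, and 1 at an unadjusted p under 0.05, beside 2.54% and 15.4% of all genes.

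Heme is the cofactor of every P450. Of 12 genes of heme synthesis and breakdown, 2 rose in mutants against wild-type mice and 0 fell. The median log2 difference of the 12 was 0.07, and over all genes 2.96% were called higher and 6.69% lower. The biliverdin reductase gene Blvrb rose 2.28-fold, to 9.92 ± 0.29 in mutants, against 8.74 ± 0.04 in wild-type mice (SD, n = 4 each; limma adjusted p = 0.000911). Heterozygotes were at 9.66, 9.76, 9.01 and 9.88 for Blvrb, above all wild-type mice and overlapping the mutants, though limma did not call them against wild type. Blvra, a relative of Blvrb, rose 1.28-fold in mutants over wild type (limma adjusted p = 0.0245), a call that ended without any 1 of 4 arrays, mutant replicate 3 among them. In mutants against heterozygotes, where 1.07% of all genes were called higher and 1.46% lower, limma called 0 of the 12 higher. It called 1 lower, Uros, the uroporphyrinogen synthase gene (adjusted p = 0.0485). That call ended without mutant replicate 3 (limma adjusted p = 0.0789), and 0 of the 12 were called.

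Arachidonic acid, a CYP4 substrate, is released by phospholipases and also used by cyclooxygenases and lipoxygenases. Of 21 such genes 0 rose and 2 fell in mutants against wild-type mice, beside 2.96% of all genes called higher and 6.69% lower. The median log2 difference of the 21 was -0.02. Hpgd, the prostaglandin-degrading dehydrogenase gene, was at 9.43, 9.33, 8.58 and 9.48 in mutants, 10.11, 10.22, 10.07 and 10.23 in heterozygotes, and 10.35, 10.23, 10.06 and 10.21 in wild-type mice. All mutants were below all other mice, and mutant replicate 3 was the lowest. Hpgd fell to 2.01-fold below wild type (log2 difference -1.01, limma adjusted p = 0.00164) and, without mutant replicate 3, to 1.74-fold below. The phospholipase gene Pla2g5 fell to 8.65 ± 0.24 in mutants, against 9.21 ± 0.24 in wild-type mice (SD, n = 4 each; limma adjusted p = 0.0105), with arrays that overlapped.

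Epoxygenases compete with CYP4 enzymes for arachidonic acid, and epoxide hydrolases degrade their products. Of 17 such genes 2 rose and 1 fell in mutants against wild-type mice, beside 2.96% of all genes called higher and 6.69% lower. The median log2 difference of the 17 was 0.0072. Cyp2j13 rose 1.38-fold, to 6.71 ± 0.05 in mutants, against 6.25 ± 0.10 in wild-type mice (SD, n = 4 each; limma adjusted p = 0.00152). Ephx2, which encodes soluble epoxide hydrolase, rose 1.25-fold (limma adjusted p = 0.00401). Cyp2j11 fell by 0.27 on the log2 scale (limma adjusted p = 0.0413), a call that ended without any 1 of 10 arrays, mutant replicate 3 among them. In mutants against heterozygotes 2 of the 17 rose, Cyp2j13 and Ephx2, beside 1.07% of all genes called higher.

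The products of omega-hydroxylation are oxidised to dicarboxylic acids and shortened in peroxisomes. A list of 35 genes covered these steps and other peroxisomal routes such as alpha-oxidation, so its counts are not of these steps alone. Of the 35, 9 rose and 1 fell in mutants against wild-type mice. Over all genes 2.96% were called higher and 6.69% lower. The median log2 difference of the 35 was 0.13, and without mutant replicate 3 the counts were 10 higher and 1 lower. The aldehyde dehydrogenase gene Aldh1a1, which is better known for making retinoic acid, was at 9.69, 10.09, 9.89 and 9.56 in mutants, 8.61, 8.75, 8.94 and 8.94 in heterozygotes, and 8.67, 8.91, 8.89 and 8.83 in wild-type mice. All mutants were above all other mice, and Aldh1a1 rose 1.98-fold over wild type (limma adjusted p = 0.000237).

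Aldh1a7, a close relative of Aldh1a1, rose 1.63-fold (limma adjusted p = 0.00894), although mutant replicate 4, at 8.18, lay within the wild-type range. Hacl1, a peroxisomal lyase gene of alpha-oxidation, rose 1.59-fold (limma adjusted p = 0.00180). Eci3, an enoyl-CoA isomerase gene, fell to 1.48-fold below wild type (limma adjusted p = 0.00840). In mutants against heterozygotes 7 of the 35 rose and 1 fell, where 1.07% of all genes were called higher and 1.46% lower. Without mutant replicate 3 the count was 8 higher, with Acot3 added. In heterozygotes against wild-type mice limma called 0, and 1 at an unadjusted p under 0.05, beside 0.135% and 11.3% of all genes. With mutant replicate 3 left out, limma called 1 of the 35 higher in heterozygotes against wild-type mice. This was the alcohol dehydrogenase gene Adh1 (log2 difference 0.34, limma adjusted p = 0.0481). That fit called 55 of all genes in this comparison, 21 higher and 34 lower. The log2 difference was the same in both fits, since leaving out a mutant changes only the shared spread and the p-values.

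Of 33 PPAR receptor genes and PPAR-alpha target genes, 9 rose and 4 fell in mutants against wild-type mice, with a median log2 difference of 0.11. Over all genes 2.96% were called higher and 6.69% lower. With mutant replicate 3 left out the counts were 8 higher and 4 lower. Fabp1, which encodes the liver-type fatty acid binding protein, was at 11.30, 8.53, 9.90 and 8.01 in mutants, 9.81, 9.69, 9.52 and 9.35 in heterozygotes, and 6.84, 6.70, 6.52 and 6.47 in wild-type mice. Mutants and heterozygotes overlapped and were all above the wild-type mice. It rose 6.97-fold over wild type in mutants (log2 difference 2.80, limma adjusted p = 0.00439), and its mutants were not ordered as those of Cyp4a12a, since replicate 1 was the highest.

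In heterozygotes the Fabp1 log2 difference from wild type was 2.96 (limma adjusted p = 0.0447), the only call among the 33 in that comparison, and it ended without any 1 of 7 arrays. The acyl-CoA thioesterase gene Acot1 rose 1.96-fold in mutants over wild type (limma adjusted p = 0.00430), with replicates 2 and 3 the highest mutants and replicate 4 the lowest. Angptl4, an inhibitor of lipoprotein lipase, rose 1.92-fold (limma adjusted p = 0.0294), a call that was lost (0.0687) in the fit that leaves out mutant replicate 3. The fatty acid transporter gene Cd36 fell to 1.55-fold below wild type (limma adjusted p = 0.00333). The others that fell were Ppard, which encodes PPAR-delta, the coactivator gene Ppargc1a and the retinoid receptor gene Rxrg, by 0.25 to 0.34 on the log2 scale.

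Ppara itself, named because it encodes PPAR-alpha and chosen after its values were seen, was at 10.73, 10.52, 10.96 and 10.22 in mutants and at 10.23, 10.74, 10.52 and 10.59 in wild-type mice. These ranges overlapped, and limma did not call the log2 difference of 0.09 (95% interval -0.22 to 0.40, adjusted p = 0.763). In mutants against heterozygotes 5 of the 33 rose, Acaa2, Acot1, Acot2, Angptl4 and Vnn1, and Cd36 fell, beside 1.07% of all genes called higher and 1.46% lower. The calls of Angptl4 and Vnn1 ended without mutant replicate 3, which left 3 higher and 1 lower.

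Some Cyp4 genes differ between the sexes in mouse kidney, and all mice here were female. Over all genes limma called 2.96% higher and 6.69% lower in mutants against wild-type mice. Of 10 genes known as androgen-responsive or male-biased in mouse kidney 1 rose and 1 fell there, with a median log2 difference of -0.04. Without mutant replicate 3 the counts were 2 higher and 1 lower, with Slc7a13 added. The gene that rose was Cyp2j13, given above. Kap, named for its regulation by androgens in kidney, was at 11.44, 9.87, 9.75 and 11.42 in mutants, 13.27, 12.93, 12.98 and 13.22 in heterozygotes, and 13.27, 13.23, 13.31 and 13.26 in wild-type mice. Every mutant was below every other mouse, and the mutants formed a lower and a higher pair. Kap fell to 6.29-fold below wild type (log2 difference -2.65, limma adjusted p = 0.000405) and, without mutant replicate 3, to 5.14-fold below. A part of androgens in the Cyp4 results was not tested.

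Of 4 measured genes known as female-biased, 0 rose and 2 fell, beside 2.96% of all genes called higher and 6.69% lower. Akr1c18, a progesterone-degrading enzyme gene, fell to 6.50 ± 0.64 in mutants, against 11.37 ± 0.31 in wild-type mice (SD, n = 4 each; limma adjusted p = 1.57e-05). The organic anion transporter gene Slc22a7 fell to 8.91 ± 0.87 in mutants, against 10.43 ± 0.29 in wild-type mice (SD, n = 4 each; limma adjusted p = 0.00973), and its lowest mutant was replicate 3, at 7.68. Without that array Slc22a7 fell to 2.16-fold below wild type (limma adjusted p = 0.00292). Of 7 sex steroid receptor and enzyme genes 1 rose and 2 fell, beside the same shares of all genes. The estrogen receptor gene Esr1 fell to 1.29-fold below wild type (limma adjusted p = 0.0149) and the steroid dehydrogenase gene Hsd17b2 to 1.34-fold below (limma adjusted p = 0.0121). Hsd17b11 rose 1.23-fold (limma adjusted p = 0.0421), a call that ended without any 1 of 10 arrays, mutant replicate 3 among them. In the fit without mutant replicate 3, Hsd17b2 was also lower in heterozygotes than in wild-type mice (log2 difference -0.50, limma adjusted p = 0.0481). That fit called 55 of all genes in this comparison, 34 of them lower.

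**Figure D4:**
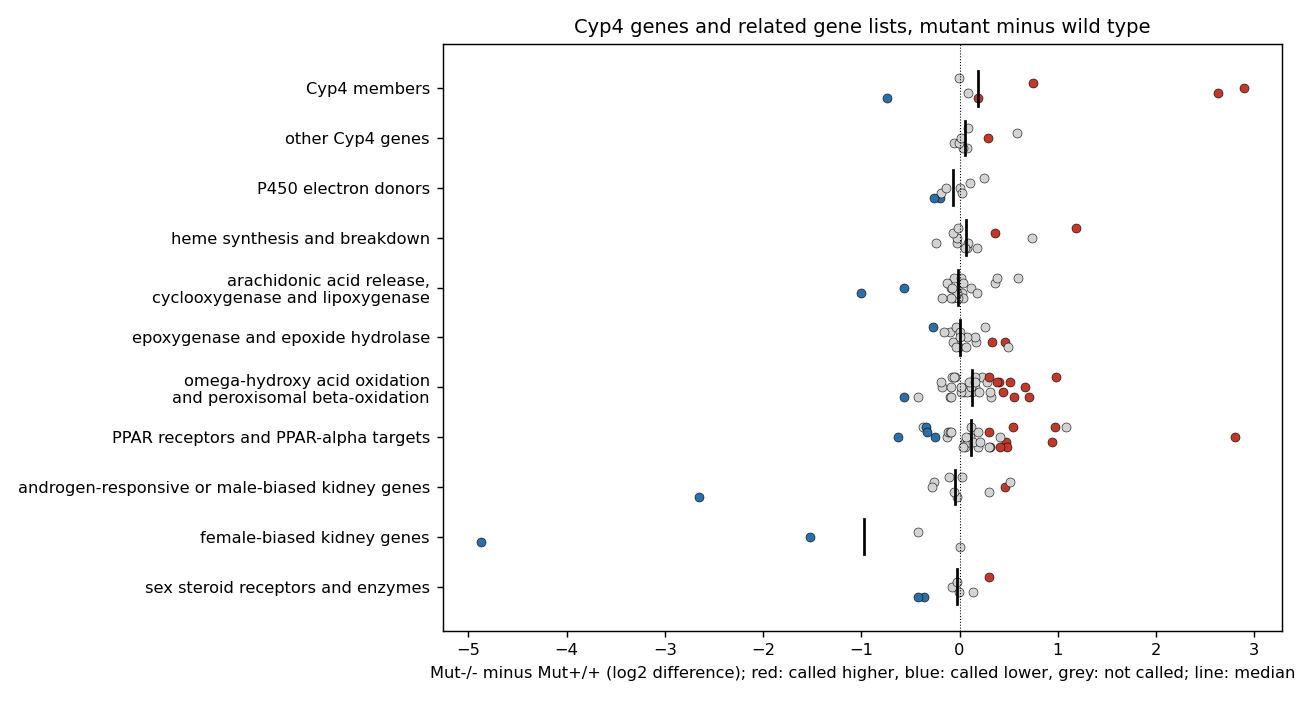
Log2 difference between mutants and wild-type mice for each measured gene of the Cyp4 list and of 10 related lists. Red points were called higher and blue points lower at a limma adjusted p under 0.05, grey points were not called, and the short line marks each list's median. Points far to the right are Cyp4a12b, Fabp1 and Cyp4a12a, and the point farthest to the left is Akr1c18.

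Markers of kidney cell types moved as well, and their part in the Cyp4 results was not tested. Beside the marker counts here and in the next paragraphs, limma called 2.96% of all genes higher and 6.69% lower in mutants against wild-type mice. Of 11 proximal tubule markers 0 rose and 1, Cubn, fell in mutants against wild-type mice, and their mean ranged from 12.17 to 12.50 in mutants, 12.40 to 12.43 in heterozygotes and 12.41 to 12.45 in wild-type mice, with mutant replicate 3 the lowest. Of 6 S3 markers 0 rose and 3 fell, Atp11a, Slc22a13 and Slc22a7, and their mean ranged from 9.60 to 10.43 in mutants, 10.45 to 10.53 in heterozygotes and 10.42 to 10.51 in wild-type mice. The S3 list includes Slc22a7, which is also on the female-biased list. Mutant replicate 4, the lowest mutant for all 7 Cyp4 genes, had an S3 mean of 10.12, and mutant replicate 3 had the lowest, at 9.60. Without mutant replicate 3 the same 3 genes were called lower, and Slc7a13, an amino acid transporter gene of this segment, was called higher (log2 difference 0.67, limma adjusted p = 0.0303).

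Of 5 distal tubule markers 0 rose and 4 fell, Calb1, Slc12a3, Slc8a1 and Trpm6, with means from 9.21 to 10.25 in mutants, 10.39 to 10.58 in heterozygotes and 10.54 to 10.59 in wild-type mice. The Trpm6 call ended without mutant replicate 3, which left 3 lower. Liver also expresses Cyp4a genes and Fabp1, and of 12 hepatocyte markers 0 rose and 1 fell, the albumin gene Alb, at 8.19 ± 0.42 in mutants, 9.87 ± 0.25 in heterozygotes and 9.87 ± 0.34 in wild-type mice (SD, n = 4 each). The mean of the hepatocyte markers ranged from 6.34 to 6.66 in mutants, 6.43 to 6.62 in heterozygotes and 6.45 to 6.65 in wild-type mice. In fat, a tissue that lies against the kidney, 0 of 6 markers were called by limma and 2 at an unadjusted p under 0.05, as 24.4% of all genes were, and their mean ranged from 6.80 to 7.52 in mutants, 7.14 to 7.37 in heterozygotes and 7.06 to 8.24 in wild-type mice. Of 7 endothelial markers 0 rose and 3 fell, Cdh5, Ehd3 and Emcn, with means from 8.85 to 9.26 in mutants, 9.31 to 9.49 in heterozygotes and 9.41 to 9.57 in wild-type mice. Mutant replicate 3 was the lowest array for this list, and without it the call of Cdh5 ended and 2 were lower.

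Of 5 podocyte markers 0 rose and 3 fell in mutants against wild-type mice, Nphs1, Podxl and Ptpro, with means from 8.18 to 8.36 in mutants, 8.44 to 8.49 in heterozygotes and 8.45 to 8.53 in wild-type mice. Of 7 smooth muscle and fibroblast markers 0 rose and 2 fell, Acta2 and Myh11, with means from 8.41 to 8.75 in mutants, 8.74 to 8.80 in heterozygotes and 8.64 to 8.89 in wild-type mice. The counts of these lists were the same without mutant replicate 3. Of 5 intercalated cell markers 0 rose and 2 fell, Atp6v0d2 and Slc26a4, with means from 9.35 to 9.57 in mutants, 9.43 to 9.55 in heterozygotes and 9.49 to 9.55 in wild-type mice. The call of Atp6v0d2 ended without mutant replicate 3, and Slc4a1 was then called higher. Of 7 macrophage markers 1 rose, Cd68, and 1 fell, Csf1r, with means from 7.77 to 8.33 in mutants, 7.98 to 8.35 in heterozygotes and 7.88 to 8.09 in wild-type mice, and the call of Cd68 ended without mutant replicate 3. Of 5 collecting duct principal cell markers 1 rose, the aquaporin gene Aqp3, and 0 fell. Of 5 thick ascending limb markers limma called 0, and 1 at an unadjusted p under 0.05, beside 24.4% of all genes at that level.

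**Figure D5:**
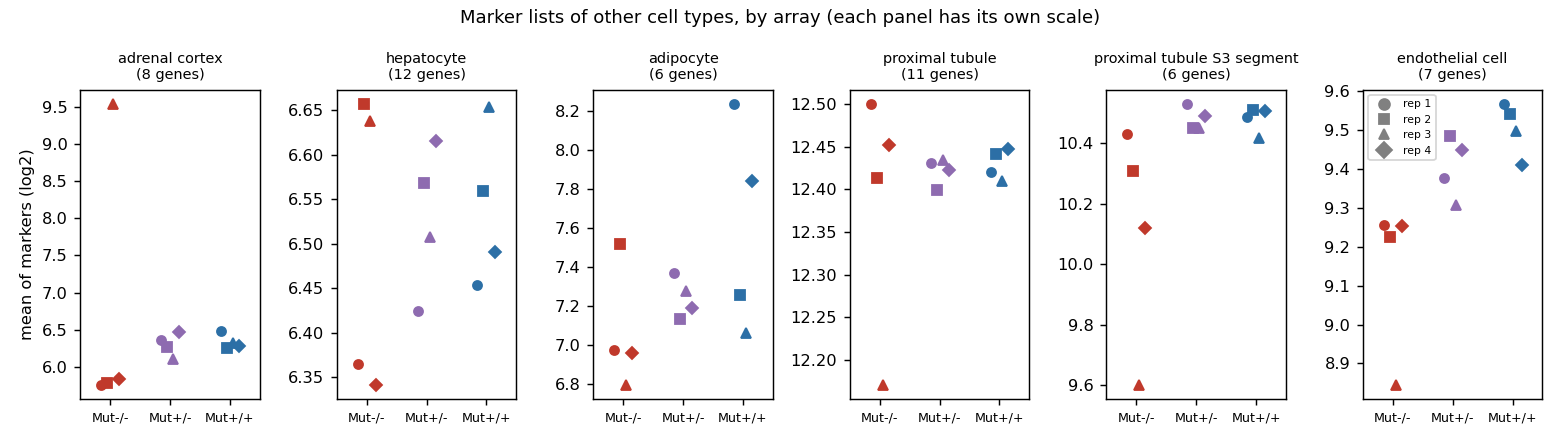
Mean log2 signal of 6 marker lists on each array, with mutants at the left, heterozygotes in the middle and wild-type mice at the right of each panel, each panel on its own scale. Symbols mark replicate numbers. Mutant replicate 3, the triangle, is high for adrenal cortex at 9.55 and is the lowest array for proximal tubule, S3 segment and endothelial markers.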

How the data were processed

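Log2 values per probe set are the unit that the authors deposited. The submitters' processing notes name RMA and Affymetrix Expression Console, version 1.2.1. RMA corrects background, makes array distributions equal and combines the probes of a set, which compresses differences near background. The sample descriptions name a mouse gene 1.0 ST array, although the labelling text names a human one, and the probe sets were read as mouse. For the probe sets a genome build was not given in the sources used here.

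Of 35552 probe sets, 21785 had 1 symbol in the platform annotation and gave 19934 genes, each through its brightest probe set. The 1621 with several symbols and the 12146 not listed were left out of the tests. Groups and replicate numbers came from the sample titles, and each array is a separate mouse. The number of arrays limits the precision.

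Differences were tested with limma 3.58.1 in R 4.3.3 (lmFit and eBayes, all 12 arrays in 1 fit, 9 residual and 4.408 prior degrees of freedom), with Benjamini-Hochberg adjustment over all genes and an adjusted p under 0.05 as the call. Genes were assigned chromosomes and promoters from RefSeq, assembly GRCm38.p6. Pairs of members were compared by two-sided exact permutation tests, and Python 3.11.15 and matplotlib 3.10.9 drew the figures. The fit was tested on simulated data.

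The members, lists and tests were chosen with earlier results of these data known. Genes named were the members, Mmut, other Cyp4 genes that were called, up to 4 called genes per list with the largest changes in mutants minus wild type, and 3 genes by likeness of pattern. Other genes named, including those that complete a count of 5 or fewer, were chosen after their values were seen. Same-numbered mice of different genotypes did not vary together (correlations from -0.24 to 0.17), so replicate numbers were not treated as pairs.

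Alternatives were a block on replicate number, fits that leave out 1 array, a test of every probe set, genes averaged over their probe sets, a group mean of at least 6 or 8, a variance prior that is trended and robust, weights for arrays, a fit of only the groups compared, quantile normalisation and centred array medians.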

Additional observations from a re-analysis of the deposited data

Results flagged for a closer look

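Single arrays that lay far from the other 3 of their genotype were looked for in 150 groups of 4 arrays by Dixon's gap test. Chance sets 1 array apart in about 1 of 20 groups, and 8 were found. Among the Cyp4 genes, wild-type replicate 3 was low for Cyp4a12b, at 6.32 against 6.89 to 6.96 in the other wild-type mice. Mutant replicate 4 was low for Aldh1a7, at 8.18 against 8.85 to 8.93. Wild-type replicate 3 was low for Slc22a7, at 9.99 against 10.54 to 10.63. Heterozygote replicate 4 was low for Cyb5r4, at 9.65 against 9.72 to 9.73, and heterozygote replicate 1 for Ephx2, at 9.72 against 9.87 to 9.90.

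Mutant replicate 3 was high for adrenal cortex markers, at a mean of 9.55 against 5.76 to 5.84 in the other mutants, and low for endothelial markers, at 8.85 against 9.23 to 9.26. Heterozygote replicate 2 was low for the only measured red blood cell marker, Alas2, at 7.95 against 9.20 to 9.30.

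A probe set that lists several Cyp4a genes was not used in the tests. Its mean was 12.99 in mutants, with arrays from 12.91 to 13.04, against 12.80 in heterozygotes and 12.71 to 12.82 on the wild-type arrays, so every mutant was above every wild-type mouse.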

How the results depend on the processing

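Of 456 alternative values of the 7 Cyp4 genes, 426 kept their direction and their side of the threshold, 18 lost the call, 4 gained it and 8 changed sign. The calls of Cyp4a12a, Cyp4a12b, Cyp4a14 and Cyp4f14 in mutants held against wild type and heterozygotes under every alternative that tested them; a group mean of at least 8 left Cyp4f14 and Cyp4f15 untested. Cyp4a10 against wild type was not called with only the groups compared (adjusted p = 0.0639 in limma), and against heterozygotes it was called at a group mean of at least 6 (0.0472) or 8 (0.0241) and with the trended and robust prior (0.0342). Sign changes came in differences near 0. For Cyp4a10 in heterozygotes minus wild type this was -0.0147 with centred medians, and the range with an array left out was -0.0283 to 0.0246. For Cyp4b1 in mutants minus wild type the values were 0.0086 without mutant replicate 2, 0.48 without mutant replicate 4 and 0.04 without wild-type replicate 2, in a range from -0.28 to 0.48. For Cyp4f15 in heterozygotes minus wild type the range was -0.0951 to 0.0537, with the sign changed without wild-type replicate 1.

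With arrays left out in turn, 4 to 5 Cyp4 genes were called in mutants against wild type, 4 in each fit against heterozygotes and 0 to 1 in heterozygotes against wild type. In that last comparison 0 were called with the replicate block, with every probe set or at a group mean of at least 8, and 2 with only the groups compared. Over all genes, mutants against wild type gave 1925 calls (591 higher and 1334 lower), 3089 with every probe set (1377 and 1712), 1154 with only the groups compared, and 1019 to 1928 with an array left out. Mutants against heterozygotes gave 506 (214 higher and 292 lower), 978 with every probe set (671 and 307), 191 with only the groups compared (100 and 91), and 229 to 592 with an array left out. Heterozygotes against wild type gave 27, against 7 with the replicate block, 41 at a group mean of at least 8, 163 with array weights, 42 with the trended and robust prior, 78 with only the groups compared and 5 to 67 with an array left out. The cause was not tested. The change of Cyp4a12b minus Cyp4a12a in heterozygotes minus wild type ran from -0.0656 to 0.098 with an array left out.

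With the replicate number as a block, the Cyp4 counts against wild type (4 higher and 1 lower) and against heterozygotes (3 higher and 1 lower) were the same, and Cyp4f14 in heterozygotes was not called (adjusted p = 0.107 in limma). The numbers are not known to pair mice. With 4 pairs the exact permutation test of a pair of members cannot go below 0.125, and with 3 against 4 arrays not below 0.0571.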
